A study of Arabidopsis thaliana with 26 samples.

Results

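THE1 (AT5G54380) and RALFL33 (AT4G15800) are 2 genes of the machinery by which Arabidopsis thaliana cells sense their own walls. Each was read by 1 probe set out of 22746 probe sets that were not controls, and both passed the filter on low values. The 2 genes were selected on their measured intensities in all 13 treatment groups, so these levels and the differences between groups are given as a description, with standard errors and with no test. The probe annotation names no genome build, and positions are therefore not given.

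THE1 (THESEUS1) encodes a receptor-like kinase of the plasma membrane from the CrRLK1L family, whose extracellular part resembles the sugar-binding protein malectin. It is known for slowing hypocotyl growth when cellulose synthesis is impaired. RALFL33 encodes a member of the rapid alkalinization factor (RALF) family, small secreted cysteine-rich peptides that are bound by CrRLK1L kinases and by wall-associated partner proteins, and that raise the pH outside the cell. Brassinosteroids are steroid hormones that promote cell elongation, which requires the wall to be loosened and watched.

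The arrays came from whole 7-day-old seedlings, labelled de-etiolated, of seed stock N6159 in the Col background. What genotype the stock carries is not stated there, and whether it is wild type is unknown here. Every group, mock included, came from this stock. All 26 arrays were of seedlings treated for 3 h, 2 arrays per group, lettered A and B. The 12 compounds were campestanol at 10 µM, then 9 compounds at 1 µM (6-deoxocathasterone, cathasterone, 6-deoxoteasterone, teasterone, 3-dehydro-6-deoxoteasterone, 3-dehydroteasterone, 6-deoxotyphasterol, typhasterol and 6-deoxocastasterone), then castasterone at 100 nM and brassinolide at 10 nM. A mock treatment was the control for all of them, so every difference from mock rests on the same 2 mock arrays. Whether A and B came from separate plantings is not stated, so the p-values below rest on a spread from A to B that could be technical alone. In whole seedlings a change in the share of cells that express a gene and a change in RNA per cell cannot be told apart.

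Values are MAS5 intensities on a linear scale. Array medians lay between 33.9 and 41.0, and arrays A and B of the same treatment correlated at 0.948 to 0.975 across probe sets on the log2 scale. The median of these correlations was 0.967, and that between arrays of the same letter was higher, at 0.973. Except where a block is named, the fit behind the standard errors, intervals and p-values below has no term for the letters. A shift shared by arrays of the same letter is therefore part of its spread. Of the 6 leaf and 10 root marker genes listed for the tissue, 2 and 1 had a named probe set. PRK, a Calvin cycle enzyme, ranged from 1356 to 2351 over the arrays, and EXPA7, an expansin of root hairs, from 106 to 240.5. RCA, the Rubisco activase, ranged from 15.5 to 1591. None of these 3 markers was called in limma for any compound, with a limma adjusted p of at least 0.759, and 0 of the 12 comparisons of each had an unadjusted p under 0.05. RCA averaged 179 ± 177 after brassinolide, 1074 ± 704 after castasterone and 696 ± 46.8 in mock (SD, n = 2 each). PRK averaged 1529 ± 225 after brassinolide and 1820 ± 140 in mock, and EXPA7 averaged 190.0 ± 15.3 after brassinolide and 147 ± 42.0 in mock (SD, n = 2 each). The part of such shifts in the values of THE1 and RALFL33 was not tested.

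THE1 stood near its mock level after campestanol, the earliest precursor, and more than 2-fold above mock after brassinolide and castasterone. The 2 brassinolide arrays both read 239 for THE1, against 112 and 84.5 in the mock arrays A and B. The 2 castasterone arrays read 267 and 226. These 4 arrays did not overlap with mock, and the brassinolide pair agreed far more closely than the mock pair. THE1 averaged 239 ± 0.409 after brassinolide and 98.3 ± 19.5 in mock (SD, n = 2 each), a log2 difference of 1.25 ± 0.18 (SE). The log2 difference after castasterone was 1.29 ± 0.18, from a mean of 247 ± 28.7 (SD, n = 2).

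Among the compounds at 1 µM, the readings of THE1 (array A, then array B) were 148 and 118 after 6-deoxocathasterone. They were 153 and 158 after cathasterone. They were 135 and 166 after 6-deoxoteasterone. All 6 of these arrays lay above both mock arrays and below the brassinolide and castasterone arrays. For teasterone the readings were 210.1 and 176, and for 3-dehydro-6-deoxoteasterone 169 and 187. For 6-deoxotyphasterol they were 188 and 185, the closest pair after that of brassinolide. No array of these 3 compounds read as high as those of brassinolide. For 3-dehydroteasterone the readings were 199.7 and 226, for typhasterol 252 and 191, and for 6-deoxocastasterone 261 and 206. The A arrays of typhasterol and 6-deoxocastasterone exceeded the brassinolide arrays, while their B arrays fell short of them. Both 3-dehydroteasterone arrays fell short as well, and its array A lay below array A of teasterone. Campestanol, at 10 µM, gave 104 and 95.4, which lie between the 2 mock arrays.

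RALFL33 followed a similar course. The brassinolide arrays A and B read 453 and 348, against 172 and 159 in mock. The castasterone arrays read 389 and 303. All 4 lay well above mock, with array A higher than array B each time. The means were 400.4 ± 74.7 after brassinolide and 166 ± 9.01 in mock (SD, n = 2 each), a log2 difference of 1.24 ± 0.22 (SE), and that after castasterone was 1.03 ± 0.22. For RALFL33 the mock arrays lay close together and the brassinolide arrays apart, the opposite of THE1.

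After 6-deoxocathasterone the RALFL33 arrays read 260.1 and 168. After cathasterone they read 256 and 249.7. After 6-deoxoteasterone they read 236 and 260.0. Array B of 6-deoxocathasterone lay between the mock arrays, so this group overlapped with mock, whereas the other 2 did not. Teasterone gave 333 and 303, 3-dehydro-6-deoxoteasterone 353 and 306, and 6-deoxotyphasterol 313 and 287. 3-dehydroteasterone gave 389 and 336, typhasterol 409 and 319.9, and 6-deoxocastasterone 433 and 291. In these 6 groups every array stood at 287 or higher and thus clear of mock, and the A and B arrays of 6-deoxocastasterone were the farthest apart. Campestanol gave 194 and 164, of which array B lay between the mock arrays.

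**Figure D1:**
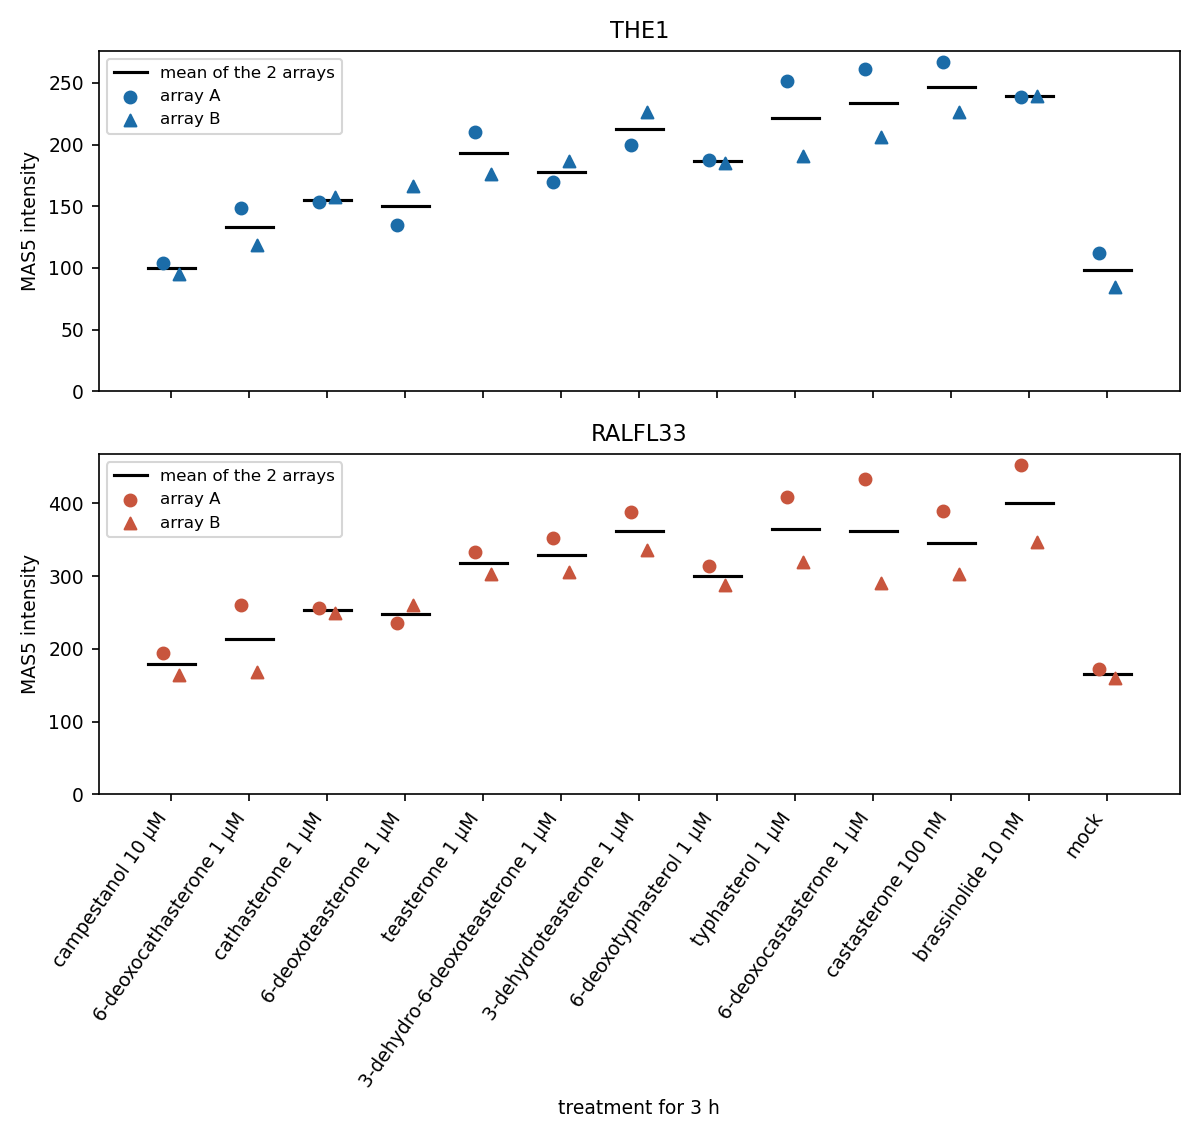
MAS5 intensity of THE1 (top) and RALFL33 (bottom) on each of the 26 arrays, by treatment, with mock at the right. Circles are A arrays, triangles are B arrays and bars are means of the 2. THE1 runs from 84.5 in mock array B to 267 in castasterone array A, and RALFL33 from 159 in mock array B to 453 in brassinolide array A.

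Both THE1 arrays lay above both mock arrays for 11 of the 12 compounds, all but campestanol. For RALFL33 this held for 10 of the 12, all but campestanol and 6-deoxocathasterone. Over the 17606 probe sets tested, the share with both arrays above both mock arrays was 12.9% for campestanol, 16.4% for 6-deoxocathasterone, 16% for cathasterone, 13.5% for 6-deoxoteasterone, 14.0% for teasterone and 17.1% for 3-dehydro-6-deoxoteasterone. It was 15.0% for 3-dehydroteasterone, 14.9% for 6-deoxotyphasterol, 18.1% for typhasterol, 19.6% for 6-deoxocastasterone, 22.0% for castasterone and 18.8% for brassinolide. The genes were picked with these values known, so nothing is read from the counts.

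Set side by side, the log2 differences from mock of THE1 and RALFL33 ran closely together. They were 0.033 ± 0.18 and 0.11 ± 0.22 (SE) after campestanol. They were 0.43 and 0.33 after 6-deoxocathasterone, 0.65 and 0.60 after cathasterone, and 0.60 and 0.57 after 6-deoxoteasterone, with the same standard errors throughout. These 3 precursors thus gave about 0.3 to 0.7 for either gene. After teasterone the differences were 0.95 and 0.92, after 3-dehydro-6-deoxoteasterone 0.84 and 0.97, and after 6-deoxotyphasterol 0.90 and 0.84. After 3-dehydroteasterone they were 1.09 and 1.10, after typhasterol 1.13 and 1.10, and after 6-deoxocastasterone 1.21 and 1.08. The difference was larger for THE1 than for RALFL33 after 9 of the 12 compounds. For 11 of the 12 the 2 genes differed by less than 1 SE, and the widest gap, 0.26, was that after castasterone.

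**Figure D2:**
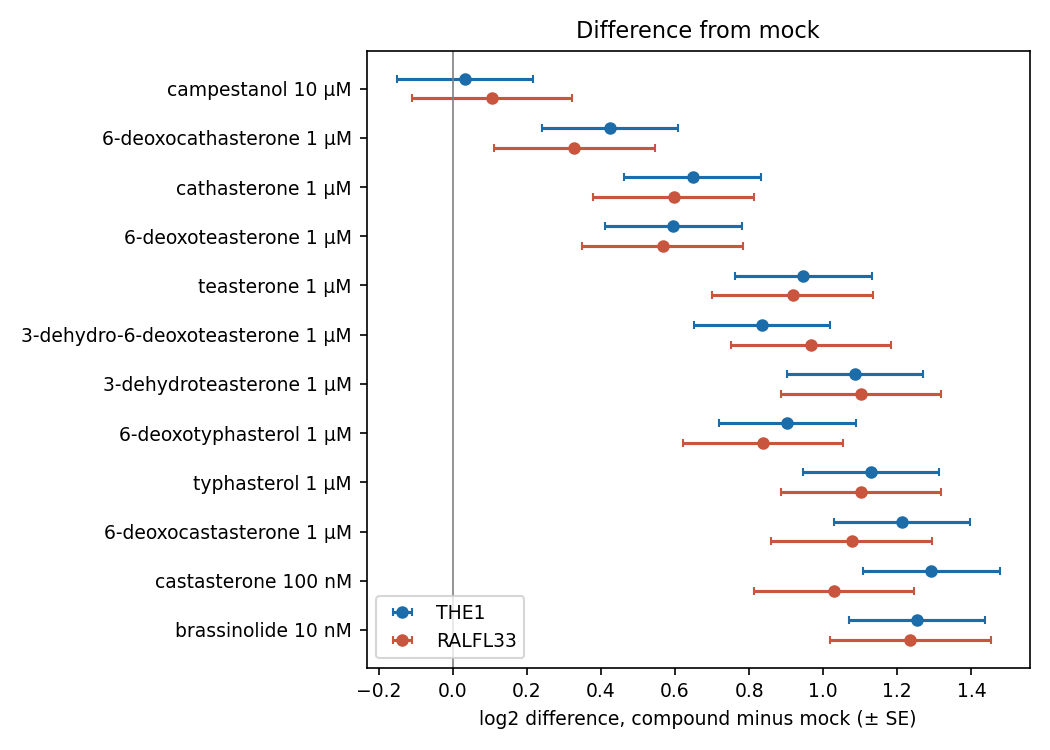
Log2 difference from mock of THE1 and RALFL33 for each compound, with the standard error from the fit to all 26 arrays as bars. The values run from 0.033 for THE1 after campestanol to 1.29 for THE1 after castasterone, and the bars of both genes overlap for every compound.

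Leaving out 1 mock array moved every THE1 difference by 0.19, since its mock arrays differ by 0.39 on the log2 scale. Without mock array A the difference after brassinolide was 1.45, and without mock array B it was 1.06. For 6-deoxocathasterone the THE1 difference was 0.62 and 0.23 in the same order. For RALFL33 the value that depended most on 1 array was that after 6-deoxocathasterone, which was 0.022 without the compound's array A and 0.64 without its array B.

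In order of the THE1 group means on the log2 scale, from the lowest, the groups were mock, campestanol, 6-deoxocathasterone, 6-deoxoteasterone, cathasterone, 3-dehydro-6-deoxoteasterone, 6-deoxotyphasterol, teasterone, 3-dehydroteasterone, typhasterol, 6-deoxocastasterone, brassinolide and castasterone. Of the 12 steps between neighbours, 1 exceeded 2 SE, the rise of 0.39 between campestanol and 6-deoxocathasterone, and 1 more exceeded 1 SE. The order for RALFL33 was mock, campestanol, 6-deoxocathasterone, 6-deoxoteasterone, cathasterone, 6-deoxotyphasterol, teasterone, 3-dehydro-6-deoxoteasterone, castasterone, 6-deoxocastasterone, 3-dehydroteasterone, typhasterol and brassinolide. None of its 12 steps exceeded 2 SE, 3 exceeded 1 SE, and the largest was 0.24. The 5 lowest groups came in 1 order for both genes, and the higher groups came in different orders.

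Among all 17606 probe sets tested, the log2 difference of THE1 after brassinolide ranked 196th from the top and that of RALFL33 204th. After castasterone the ranks were 169 and 325. After cathasterone, a precursor with far smaller differences in both genes, they were 318 and 423, and after campestanol 8257 and 5715. Both genes therefore stood within the uppermost 2.54% of differences for every compound except campestanol and 6-deoxocathasterone. After 6-deoxocathasterone the ranks were 1138 and 2055. As the genes were picked with these values known, nothing is read from the ranks either.

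Pairs of compounds at 1 µM that differ by a single change in structure were compared next, 11 pairs for each gene. Cathasterone, teasterone, 3-dehydroteasterone and typhasterol carry a ketone at C-6 that their 6-deoxo counterparts lack. THE1 averaged 193 ± 24.1 after teasterone and 151 ± 22.1 after 6-deoxoteasterone (SD, n = 2 each), a log2 difference of 0.35 (95% interval -0.034 to 0.74). The difference was 0.22 (-0.16 to 0.61) for cathasterone over 6-deoxocathasterone, 0.25 (-0.13 to 0.64) for 3-dehydroteasterone over its 6-deoxo form, and 0.23 (-0.16 to 0.61) for typhasterol over 6-deoxotyphasterol. In all 4 pairs the arrays of the ketone did not overlap with those of the 6-deoxo form. For RALFL33 the corresponding differences were 0.35 (-0.10 to 0.81) for teasterone, 0.27 (-0.19 to 0.72) for cathasterone, 0.14 (-0.32 to 0.59) for 3-dehydroteasterone and 0.26 (-0.19 to 0.72) for typhasterol. The RALFL33 arrays overlapped in the cathasterone and 3-dehydroteasterone pairs. The share of all tested probe sets without overlap in these pairs was not counted, so nothing is read from the overlaps of either gene. Averaged over the 4 pairs, the ketone form was higher by 0.26 ± 0.092 (SE, 95% interval 0.070 to 0.46) for THE1 and by 0.25 ± 0.11 (0.028 to 0.48) for RALFL33. The genes were picked with these values known, so the averaged intervals too are a description, and no effect of the ketone is read from them.

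The hydroxylation at C-23 separates teasterone from cathasterone and 6-deoxoteasterone from 6-deoxocathasterone. THE1 was higher with it by 0.30 (95% interval -0.086 to 0.68) and 0.17 (-0.22 to 0.56), and RALFL33 by 0.32 (-0.13 to 0.78) and 0.24 (-0.22 to 0.69). Oxidation at C-3 leads to 3-dehydroteasterone and 3-dehydro-6-deoxoteasterone. THE1 was higher after them by 0.14 (-0.25 to 0.53) and 0.24 (-0.15 to 0.62), and RALFL33 by 0.18 (-0.27 to 0.64) and 0.40 (-0.053 to 0.85). The C-3 reduction that follows gave the smallest differences. For THE1 they were 0.043 (-0.34 to 0.43) for typhasterol and 0.068 (-0.32 to 0.45) for 6-deoxotyphasterol, each over its 3-dehydro precursor. For RALFL33 they were 0.00012 (-0.45 to 0.45) and -0.13 (-0.58 to 0.32). Addition of the C-2 hydroxyl, from 6-deoxotyphasterol to 6-deoxocastasterone, went with 0.31 (-0.077 to 0.69) for THE1 and 0.24 (-0.21 to 0.69) for RALFL33. Every one of the 22 intervals of single pairs includes 0, and their upper ends lie between 0.32 and 0.85. They are not adjusted for their number, and they come from the fit with no term for the letters A and B. Intervals from a fit with such a term can differ and are not given here. The 22 intervals do not show that any pair acts alike. Leaving out array A or B of 6-deoxocathasterone moved 2 of the RALFL33 differences between 0.57 and -0.039 (cathasterone) and between 0.54 and -0.069 (6-deoxoteasterone).

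**Figure D3:**
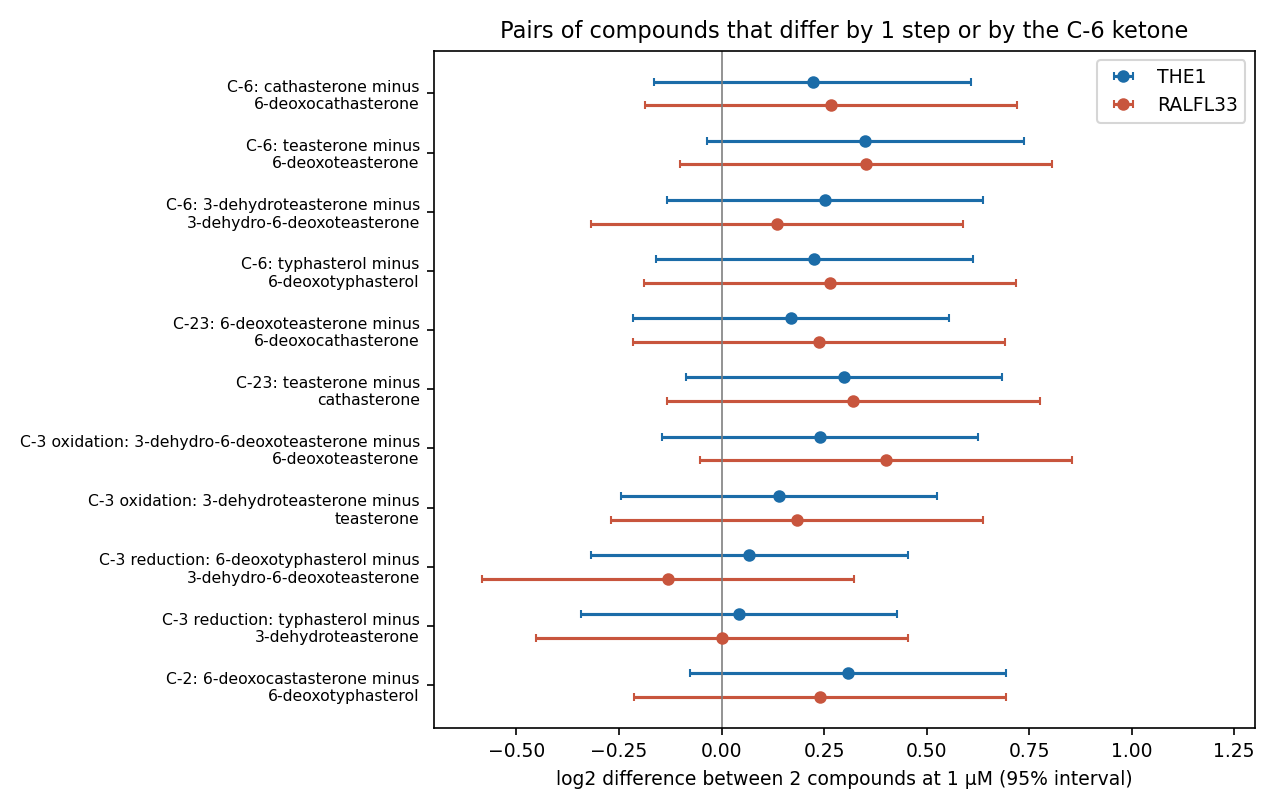
Log2 difference between 2 compounds at 1 µM that differ by the C-6 ketone (top 4 rows) or by 1 step of the pathway, for THE1 and RALFL33, with 95% intervals. In the fit with no term for the letters A and B, all 22 intervals include 0, and 21 of the 22 differences are positive.

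Brassinolide and castasterone were given at different doses, so their values stand side by side without a comparison. THE1 averaged 239 at 10 nM brassinolide and 247 at 100 nM castasterone, and RALFL33 averaged 400.4 and 346. Castasterone was not compared with typhasterol either, which was given at 1 µM.

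The 2 genes differed unequally between the letters A and B. RALFL33 was higher on array A in 12 of the 13 groups, with a median A minus B difference of 0.21 on the log2 scale, and THE1 in 8 of the 13, with a median of 0.12. Within each letter, RALFL33 was above the mock array of that letter for 12 of 12 compounds in A and 12 of 12 in B. Its log2 differences ran from 0.17 to 1.37 in A and from 0.043 to 1.10 in B. THE1 was above its own mock array for 11 of 12 compounds in A, all but campestanol at -0.10, and for 12 of 12 in B, with differences up to 1.22 in A and up to 1.45 in B. The difference was larger in B than in A for 11 of 12 compounds for THE1, and for 2 of 12 for RALFL33. All differences within a letter share 1 mock array. The mock pair differed by 0.39 (A minus B) for THE1 and by 0.11 for RALFL33. The count of 11 therefore rests largely on this 1 mock pair, not on 12 separate compounds.

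Across the 13 group means, THE1 and RALFL33 correlated with Pearson's r of 0.977. The correlation was 0.948 over the 13 A arrays alone and 0.963 over the 13 B arrays alone. These points share arrays and their scaling, and both genes were chosen together. Over these group means, 1.89% of the tested probe sets had an r above 0.9 with THE1 and 1.72% had one with RALFL33.

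**Figure D4:**
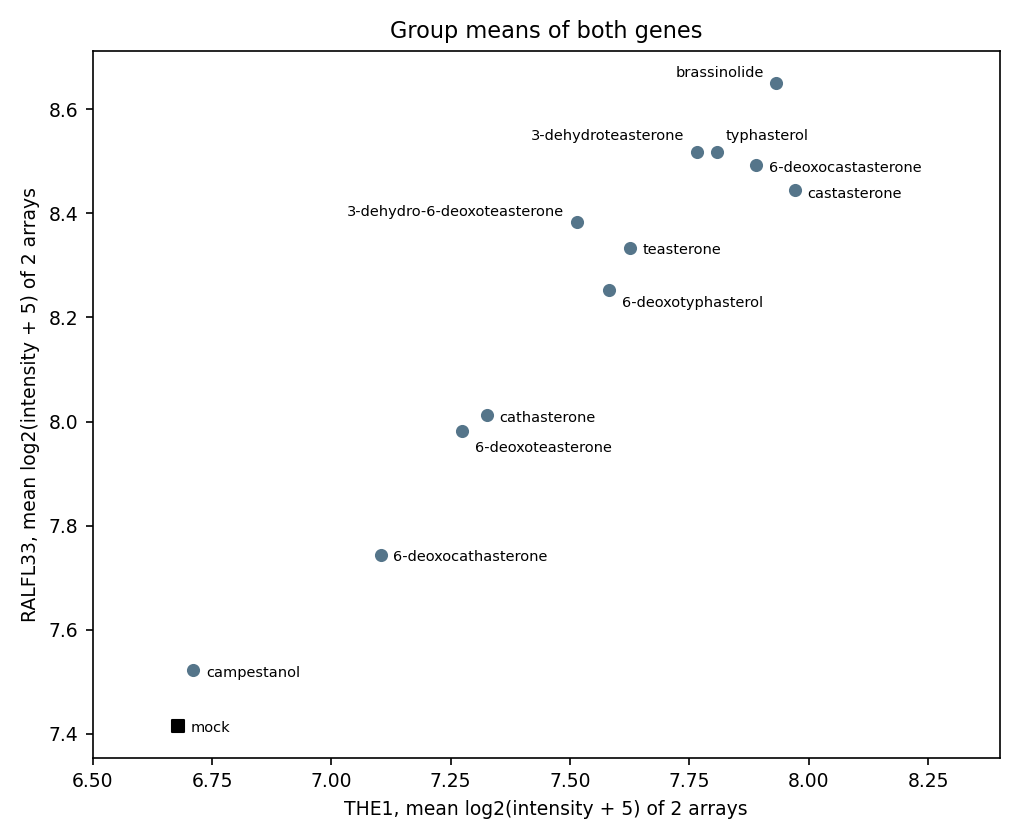
Mean log2(intensity + 5) of THE1 (x axis) and RALFL33 (y axis) in the 13 groups, each point the mean of 2 arrays, with mock as a square. Mock and campestanol lie lowest for both genes, 3 early precursors lie next, and the later compounds lie above them.

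The genes with the pattern most like that of THE1, among 9860 other tested probe sets naming 1 gene, were AT2G47440 (r = 0.984), AT1G80280 (0.982), DRT100 (0.982), AT3G06770 (0.982) and EXPA8 (0.982), an expansin, one of the proteins that loosen walls. RALFL33 came 6th in that order. For RALFL33 they were DRT100 (r = 0.989), AT1G80280 (0.987), AT1G66940 (0.984), AT2G47440 (0.979) and EXPA8 (0.979), and THE1 came 9th. Of the 5 nearest genes of each, 4 were shared. The sizes of their differences varied: after brassinolide the log2 difference from mock was 1.98 for EXPA8, 1.85 for AT2G47440, 1.72 for AT3G06770, 1.16 for AT1G80280, 1.12 for AT1G66940 and 0.76 for DRT100. The order depended on the measure of likeness. By Spearman's rank correlation, 0 of the 5 nearest genes of THE1 and 1 of those of RALFL33, DRT100, in 1st place, were among the 20 nearest. By Pearson's r over the 26 arrays, 4 of the 5 for THE1 and 3 of the 5 for RALFL33 were. The places of the 2 genes for each other depended on it too. For THE1, RALFL33 ranked 156.5 by Spearman's rank correlation (ties averaged) and 7th by Pearson's r over the 26 arrays. For RALFL33, THE1 ranked 113.5 and 3rd in the same order.

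The remaining genes of the RALF system give the setting. Of 17 CrRLK1L receptor kinases, 12 had a named probe set and 7 passed the filter, THE1 included. Of 34 RALF genes, 10 had a named probe set and 5 passed, RALFL33 included. The 5 kinases under the filter, ANJ, ANX1, ANX2, BUPS1 and BUPS2, of which ANX1, ANX2, BUPS1 and BUPS2 act in pollen tubes, stayed at or below 14.4 on every array. The 5 peptides under it, RALFL18, RALFL25, RALFL26, RALFL27 and RALFL28, stayed at or below 18.0. HERK1, a close relative of THE1, RALF1 and RALF23 were not analysed here. With 3 partners of RALF peptides (LRX4, LRX5 and SBT6.1) and 1 downstream kinase (MRI), 14 related genes were tested.

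None of the 14 was called for any compound at an adjusted p under 0.05 in the limma fit without the letters A and B as a block. The share of all tested probe sets that were called was 0% for campestanol, 6-deoxocathasterone and cathasterone, 0.165% for 6-deoxoteasterone, 0.352% for teasterone, 0.557% for 3-dehydro-6-deoxoteasterone and 1.42% for 3-dehydroteasterone. It was 0.193% for 6-deoxotyphasterol, 1.77% for typhasterol, 1.95% for 6-deoxocastasterone, 2.38% for castasterone and 2.58% for brassinolide. With shares this low, 0 of 14 is close to the background. With the letters as a block, FER was called for castasterone (limma adjusted p = 0.0271) and RALFL24 for brassinolide (limma adjusted p = 0.0411). That fit called 937 of the 17606 tested probe sets for castasterone and 917 for brassinolide. Without the block, an unadjusted p under 0.05 was found for 1 of the 14 each for campestanol and brassinolide. It was found for 2 each for typhasterol, 6-deoxocastasterone and castasterone, and for none for the other 7 compounds. After brassinolide the median log2 difference of the 14 was 0.24, the largest of any compound, against -0.0005 over all tested probe sets. The 14 ranged from -0.45 to 0.63 after brassinolide, and 9 of them were positive. For the other compounds the median of the 14 ran from -0.043 (campestanol) to 0.22 (castasterone).

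Among the receptor kinases, FER (FERONIA), the receptor of RALF1, averaged 1025 ± 165 after brassinolide and 837 ± 235 in mock (SD, n = 2 each). Its log2 difference was 0.31 (95% interval -0.27 to 0.89), and that after castasterone was 0.49 (-0.090 to 1.08). In the fit without the block the limma adjusted p was 0.867 and 0.574. The FER arrays of each group overlapped with mock, and array A exceeded array B in 13 of 13 groups. CVY1, AT5G24010, MDS3, MDS4 and AT2G23200 had log2 differences between -0.11 and 0.42 after brassinolide. Of these, AT5G24010 had the largest, with 46.0 ± 9.86 after brassinolide and 33.4 ± 8.87 in mock. It was also the one related gene at an unadjusted p under 0.05 for campestanol (log2 difference 0.47, limma adjusted p = 1.00).

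Among the peptides, RALFL24 averaged 132 ± 8.42 after brassinolide and 84.0 ± 3.98 in mock (SD, n = 2 each), and the arrays did not overlap. Its log2 difference was 0.62 (95% interval 0.23 to 1.02). In the fit without the block its limma adjusted p was 0.109, the lowest there among the related genes. RALFL34, whose peptide is a known ligand of THE1, stood at 736 ± 25.8 after brassinolide and 629 ± 59.4 in mock, a log2 difference of 0.23 (-0.11 to 0.56). RALFL31 and RALFL32 had negative values, of -0.22 and -0.45 after brassinolide and -0.43 and -0.31 after castasterone (limma adjusted p of at least 0.417). The 4 peptides had a median log2 difference of 0.0054 after brassinolide. RALFL24 and RALFL31 were the 2 related genes at an unadjusted p under 0.05 for typhasterol, 6-deoxocastasterone and castasterone, RALFL24 with positive and RALFL31 with negative differences. RALFL24 was also the one for brassinolide.

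LRX4 and LRX5 encode leucine-rich repeat extensins, wall proteins that bind RALF peptides. LRX4 averaged 134 ± 65.3 after brassinolide and 79.9 ± 8.30 in mock, a log2 difference of 0.63 (95% interval -0.22 to 1.48). That interval rests on the spread within groups over all 26 arrays, not on the brassinolide arrays alone. Both brassinolide arrays of LRX4 lay above both mock arrays, as did those of 18.8% of all tested probe sets. LRX5 had a log2 difference of 0.27. SBT6.1, a protease that cleaves RALF precursors, stood at -0.11, and MRI (MARIS), a kinase acting downstream of CrRLK1L receptors, at 0.35. Across the 13 group means, FER correlated with THE1 at r = 0.880 and with RALFL33 at 0.849, and RALFL24 at 0.832 and 0.829. RALFL31 ran the other way, at -0.713 and -0.666. These correlations are descriptions over 13 points from the same arrays.

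**Figure D5:**
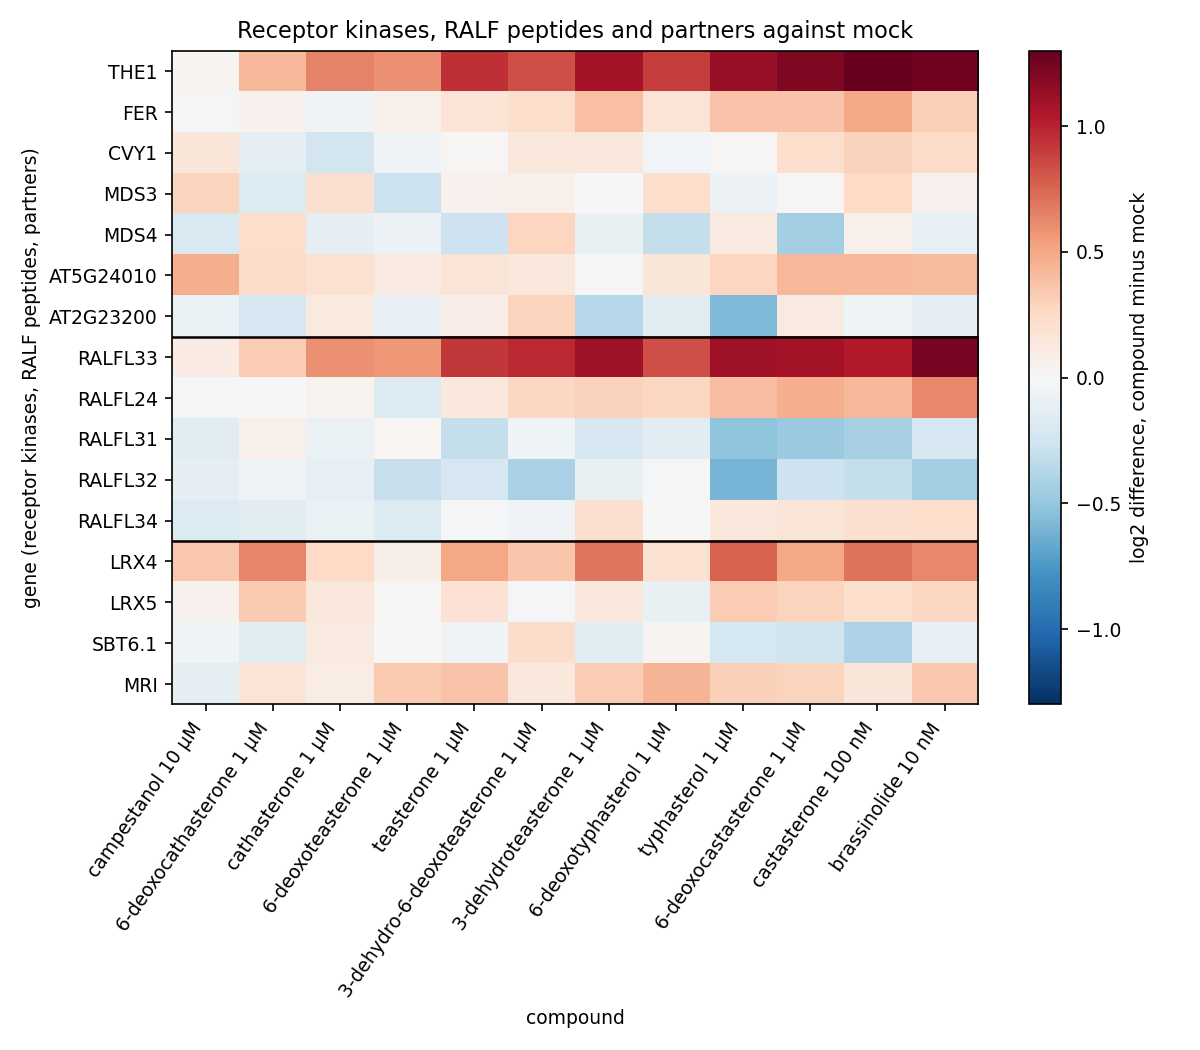
Log2 difference from mock of THE1, RALFL33 and the 14 related genes tested, in rows grouped as receptor kinases, RALF peptides, and partners with a downstream kinase, for each compound in columns. THE1 and RALFL33, which were chosen for this pattern, reach 1.29 and 1.24, and the highest of the other values is the 0.76 of LRX4 after typhasterol.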

How the data were processed

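Each of the 26 arrays held 1 biotin-labelled sample. The intensities are those deposited by the authors, on a linear scale, computed with MAS5 per the submitters' processing notes. No version, setting or detection call of MAS5 was found in the labels. The mean of each array after trimming 2% at either end was 99.3 to 99.6, so no further scaling was applied. The groups were read from the treatment text of the labels, and the letters from the sample titles.

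The 64 control probe sets among 22810 were dropped, and a filter of 10 on the mean over all arrays left 17606 for the tests. Values were taken as log2(value + 5), so changes at low intensity are understated. One model over the 26 arrays, with a coefficient per group and an intensity trend, was fitted with limma 3.58.1 (R 4.3.3), leaving 13 residual degrees of freedom, with Benjamini-Hochberg adjustment over all tested probe sets and a threshold of 0.05. It was tested on simulated data. Precision is limited by 2 arrays per group. A platform table named 1 gene for 13513 probe sets, several for 503 and none for 8730, and 13436 matched a RefSeq gene table (TAIR10.1). Named genes are THE1, RALFL33, list members with a tested probe set, and the 5 genes nearest to each of the 2 by Pearson's r over the 13 log2 group means. The genes and lists were chosen with earlier results of these data known. Listed cellulose synthase genes had no named probe set, and BRL1 alone of the brassinosteroid signalling list had one, below the filter.

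Other pseudocounts (1 and 16), quantile normalization, median centring, other filters (none and 20), no intensity trend, the letter as a block, fits of 2 groups only and leaving out each array were tried. Whether the letters pair the arrays was checked by correlating the A minus B differences of all probe sets between groups. Correlations between arrays of the same letter were also set beside those within groups.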

Additional observations from a re-analysis of the deposited data

How the results depend on the processing

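The log2 differences of THE1 and RALFL33, 24 from mock and 22 between compounds, moved by less than the pooled SD of the gene in all 184 values under the 2 other pseudocounts, quantile normalization and median centring. The letter block and 2-group fits cannot change them. With 1 array left out, 40 of 184 moved further. For THE1 against mock the values then ran from -0.16 to 0.23 for campestanol, 0.23 to 0.62 for 6-deoxocathasterone, 0.45 to 0.84 for cathasterone, 0.40 to 0.79 for 6-deoxoteasterone, 0.75 to 1.14 for teasterone, 0.64 to 1.03 for 3-dehydro-6-deoxoteasterone, 0.89 to 1.28 for 3-dehydroteasterone, 0.71 to 1.10 for 6-deoxotyphasterol, 0.93 to 1.33 for typhasterol, 1.02 to 1.41 for 6-deoxocastasterone, 1.10 to 1.49 for castasterone and 1.06 to 1.45 for brassinolide. For RALFL33 they ran from 0.022 to 0.64 for 6-deoxocathasterone and 0.79 to 1.36 for 6-deoxocastasterone. Between compounds they ran, for RALFL33, from -0.039 to 0.57 (cathasterone over 6-deoxocathasterone), -0.069 to 0.54 (6-deoxoteasterone over 6-deoxocathasterone) and -0.044 to 0.52 (6-deoxocastasterone over 6-deoxotyphasterol), and for THE1 from 0.030 to 0.42 (typhasterol over 6-deoxotyphasterol) and -0.15 to 0.24 (typhasterol over 3-dehydroteasterone). The likeness of THE1 and RALFL33 was 0.977 as Pearson's r over group means, 0.912 as Spearman's rho, 0.940 over 26 arrays and 0.952 over 26 arrays less each letter's mean. The cause of these changes was not tested.

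The A minus B differences of all probe sets correlated above 0.1 in 76 of 78 pairs of groups (median 0.317, lowest -0.022), and in 12 of 12 pairs with mock. The letters thus carry a shared shift. No label explains it, so the main fit has no block. With the letter as a replicate block, 1 of the 14 related genes was called for castasterone (FER, limma adjusted p = 0.0271) and 1 for brassinolide (RALFL24, limma adjusted p = 0.0411), against 0 without it. Under the other alternatives, leaving out arrays included, 0 of the 14 were called. The block gave 917 called probe sets for brassinolide, against 454 without it, and 937 for castasterone, against 419. With it the count was 0 for campestanol (0 without), 6 for 6-deoxocathasterone (0), 20 for cathasterone (0), 79 for 6-deoxoteasterone (29), 270 for 3-dehydro-6-deoxoteasterone (98), 184 for teasterone (62), 105 for 6-deoxotyphasterol (34), 516 for 3-dehydroteasterone (250), 709 for typhasterol (312) and 804 for 6-deoxocastasterone (343). Leaving out 1 array gave 180 to 310 calls for brassinolide and 190 to 293 for castasterone, and fitting only the 4 arrays compared gave 371 and 151. Such fits also gave 1 call for cathasterone, 10 for 6-deoxoteasterone, 22 for 3-dehydro-6-deoxoteasterone, 11 for teasterone, 14 for 6-deoxotyphasterol, 67 for 3-dehydroteasterone, 180 for typhasterol and 34 for 6-deoxocastasterone. Quantile normalization gave 6 calls for cathasterone and 1 for 6-deoxocathasterone, median centring 2 for cathasterone, 1 for 6-deoxocathasterone and 17 for 6-deoxoteasterone, and a pseudocount of 16 gave 3 for cathasterone. Elsewhere, leaving out 1 array gave 0 to 7 calls for campestanol, 0 to 4 for 6-deoxocathasterone, 0 for cathasterone, 5 to 24 for 6-deoxoteasterone, 36 to 51 for 3-dehydro-6-deoxoteasterone, 16 to 50 for teasterone, 6 to 17 for 6-deoxotyphasterol, 78 to 131 for 3-dehydroteasterone, 130 to 194 for typhasterol and 138 to 263 for 6-deoxocastasterone.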

Other observations

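FER was higher on array A in 13 of 13 groups (median log2 difference 0.38) and RALFL32 in 12 of 13 (0.57), whereas LRX4 was higher on array B in 12 of 13 (median A minus B -0.44). Of all tested probe sets, 6.91% were higher on array A in at least 12 of the 13 groups and 11.3% were higher on array B. The labels do not explain the letters.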
